A study of Mus musculus with 90 samples.

Results

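The genes described here are the organic ion and drug transporters of the mouse, measured in 15 tissues of females in estrus and in diestrus. They were taken by gene symbol alone, as every gene of the table whose symbol begins with Slc22a, Slco, Slc47a or, before a number, Abcb, Abcc or Abcg. This gave 67 of the 20414 genes listed, and no measured value entered the choice. The study took adult C57BL/6 females (C57BL/6J in its methods), staged each animal by the cells of a vaginal smear, and sequenced polyadenylated RNA of aorta, brown adipose tissue (BAT), cerebrum, duodenum, heart, hypothalamus, kidney, liver, skeletal muscle, ovary, spleen, stomach, vein, white adipose tissue (WAT) and uterus. Each of the 30 groups of tissue and phase holds 3 libraries, so that every tissue has 6 libraries and the series 90. By the study's text the 15 tissues came from the same 3 mice in each phase. The labels do not say which libraries share a mouse. All animals were untreated and of the same strain, with an age of 10 weeks by the labels, while the methods of the study give another age. Each library is of a whole tissue piece, so a transporter that is high in only some of the cells of an organ is seen diluted by the others. In such pieces fewer cells of a type and less RNA per cell cannot be told apart.

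These proteins decide which charged molecules, drugs, hormones and bile acids enter and leave a cell. The solute carriers of the Slc22a family take up organic cations, organic anions, carnitine and urate, the Slco family (OATPs, organic anion transporting polypeptides) takes up bile acids, bilirubin, prostaglandins, thyroid hormones and statins, and the Slc47a family (MATEs, multidrug and toxin extrusion proteins) exchanges organic cations for protons at the apical membrane. The ATP-binding cassette families Abcb, Abcc and Abcg use ATP to pump drugs, conjugates, lipids, sterols and bile salts out of cells or into organelles. In kidney the proximal tubule couples uptake from blood to export into urine, in liver the hepatocyte couples uptake from blood to export into bile, and in the gut the enterocyte pumps many of the same compounds back into the lumen.

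Values are FPKM, a fragment count divided by the length of the transcript and by the sequencing depth of the library, so that levels of different genes can be set side by side. A difference is given on the log2(FPKM + 1) scale, where the added 1 shrinks the differences of genes with low levels. A gene was called when its log2 difference was at least 1 in either direction and its adjusted p was at most 0.05, by limma with a Benjamini-Hochberg adjustment over all genes tested.

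The results below turn on genes that sit in kidney, liver and duodenum, and the bases just before their start sites are shown for 3 organic anion transporters of the kidney tubule, for the hepatocyte transporters Slco1b2 and Abcb11, and for the stretch shared by Abcg5 and Abcg8. Each line holds the 150 bases before a RefSeq start on build GRCm38.p6, 5′ to 3′ on the strand of the gene. Capitals mark the letters GTTAAT (1 arm of the palindrome bound by HNF1, a transcription factor of kidney, liver and gut) and AGGTCA (the core motif of nuclear receptors), on either strand, so that TGACCT is AGGTCA read on the other strand.
Slc22a12, chr19:6543071-6543220, minus strand: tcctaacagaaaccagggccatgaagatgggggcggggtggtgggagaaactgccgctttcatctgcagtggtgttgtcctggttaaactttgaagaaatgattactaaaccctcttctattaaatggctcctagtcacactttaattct
Slc22a8, chr19:8593032-8593181, plus strand: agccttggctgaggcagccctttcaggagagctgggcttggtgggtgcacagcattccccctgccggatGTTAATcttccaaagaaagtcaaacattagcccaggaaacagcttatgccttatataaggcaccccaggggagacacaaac
Slc22a6, chr19:8617846-8617995, plus strand: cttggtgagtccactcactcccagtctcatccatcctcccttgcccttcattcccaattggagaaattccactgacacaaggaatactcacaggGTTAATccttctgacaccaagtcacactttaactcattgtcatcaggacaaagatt
Slco1b2, chr6:141629368-141629517, plus strand: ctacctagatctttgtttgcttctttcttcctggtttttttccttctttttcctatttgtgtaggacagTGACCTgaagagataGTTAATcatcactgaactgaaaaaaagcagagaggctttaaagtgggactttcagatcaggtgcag
Abcb11, chr2:69342617-69342766, minus strand: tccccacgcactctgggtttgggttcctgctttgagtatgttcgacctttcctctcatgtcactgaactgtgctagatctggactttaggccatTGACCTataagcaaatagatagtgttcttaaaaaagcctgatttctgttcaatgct
Abcg5 and Abcg8 are transcribed away from each other, and 109 bases lie between the Abcg5 start and the nearer of the RefSeq starts of Abcg8, chr17:84683012-84683120, given here on the strand of Abcg8: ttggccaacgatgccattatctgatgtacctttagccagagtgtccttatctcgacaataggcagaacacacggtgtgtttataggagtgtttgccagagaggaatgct

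Of the 67 transporters, 53 had a RefSeq promoter window, 63 windows in all. In the 250 bases before the start, GTTAAT was found in 4 of the 63 windows (6.35%) and in 6.43% of the 32851 windows of all genes, and the 4 belonged to Slc22a6, Slc22a8, Slc22a29 and Slco1b2. AGGTCA was found in 12 of the 63 windows (19%), against 14% of all. Longer sites, searched in 250 bases before to 50 after the start on both strands, were rare everywhere: an estrogen response element (GGTCA, any 3 bases, TGACC) was in 0 of the 63 windows and in 0.07% of all, a full HNF1 palindrome (GTTAAT, any base, ATTAAC) in 0 and 0.00913%, an HNF4 site, CAAAGTCCA, in 0 and 0.475%, and the core TNGCGTG of a xenobiotic response element in 1 window (Abcc4, 1.59%) and 5.07%. A match is a string of letters, and nothing was measured on whether a factor sits there.

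Some libraries stood apart, which bears on several values below. BAT estrus replicate 3 came to about 89070 reads from the steps of its FPKM values, against 10820000 to 20970000 reads in the other 89 libraries, and it listed 12048 genes at 0 against 2404 to 4820 in the others. Duodenum estrus replicate 1 held gastric epithelium markers with a summed level of 73423 FPKM (4.39 to 30.8 in the other 5 duodenum libraries, 62393 to 166055 in stomach) and the lowest enterocyte sum, 6345 against 11798 to 22990. Aorta estrus replicate 1 had a smooth muscle sum of 16347 against 1817 to 2668 in the other 5 aorta libraries, which carried adipocyte sums of 13516 to 16819 and brown adipocyte sums of 5903 to 9564 (2664 and 741 in estrus replicate 1). Spleen estrus replicate 2 held pancreatic acinus markers with a sum of 8200, against 3.88 to 22.9 in the other 5 spleen libraries. Hepatocyte, kidney proximal tubule, enterocyte, neuron, cardiomyocyte and skeletal muscle fibre markers were each highest in liver, kidney, duodenum, cerebrum, heart and skeletal muscle, respectively. The sum of the uterine epithelium markers was higher in stomach than in uterus, and that of the choroid plexus markers was highest in liver, which shares Ttr with that list.

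Of the 67 transporters, 61 reached a mean of 1 FPKM over the 6 libraries of at least 1 tissue, and 12 did so in all 15. The 6 that did not were Abcc12, Slco6d1, Slco6c1, Slc22a16, Slc22a20 and Slc22a14. The highest single value of Abcc12 was 0.37 FPKM and that of Slc22a14 was 1.1 FPKM, while the other 4 did not pass 0.1 FPKM in any library. Kidney held the highest mean for 21 of the 61, liver for 12, duodenum for 5, ovary for 4, heart, hypothalamus, skeletal muscle, spleen and uterus for 3 each, cerebrum for 2, and BAT and WAT for 1 each. For 34 of the 61 all 6 libraries of the highest tissue were above all 6 of the next tissue, 16 of them in kidney and 9 in liver, and for the other 27 the 2 tissues overlapped. The mean of the highest tissue was at least 10 times that of the next for 19 transporters and at least 100 times for 5, and it was under 1.5 times for 23. The counts of highest tissues, of separation and of ratios were taken for the transporters only. With no share over all genes beside them, they describe these genes and show nothing particular to them.

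**Figure D1:**
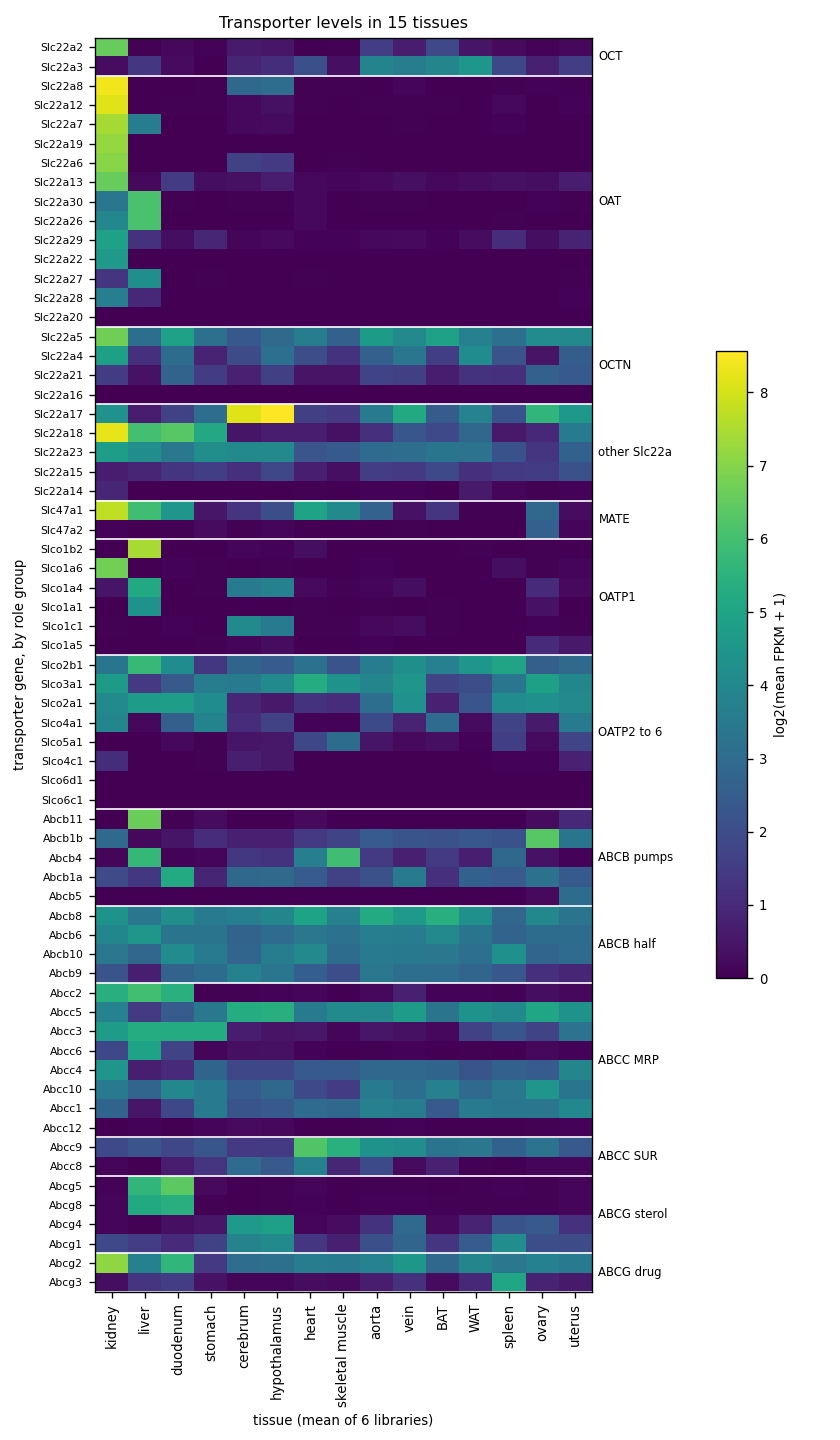
Level of 65 of the 67 transporters (rows, by role group) in each of the 15 tissues (columns), as log2(mean FPKM + 1) over 6 libraries. The organic anion transporters are bright in kidney and, for a few, in liver, the OATP1 genes are bright in few organs each, and the organelle ABCB transporters are at middle levels in all tissues.

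The organic cation transporters bring in positively charged drugs and amines such as metformin and serotonin. Slc22a2 (OCT2), the basolateral cation carrier of the tubule, was a kidney gene in these data, with 73.8 to 121 FPKM there (median 95) and a mean of 2.7 FPKM in BAT, the next tissue. In liver Slc22a2 did not pass 0.06 FPKM in any of the 6 libraries. Slc22a3 (OCT3), a carrier of monoamines in many tissues, had the reverse distribution, with 17.4 to 25.9 FPKM in WAT (median 20.8), 8.87 to 15.1 FPKM in vein and 0.06 to 0.41 FPKM in kidney. Slc22a3 was called higher than in the other 14 tissues in WAT, BAT, aorta and vein, and lower in kidney (log2 difference -1.55, SE 0.18), duodenum, ovary, skeletal muscle and stomach. In aorta Slc22a3 was at 1.75 FPKM in the library rich in smooth muscle markers and at 11.7 to 20.4 FPKM in the other 5.

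Slc47a1 (MATE1) hands cations from the tubule and the hepatocyte on to urine and bile. It was at 184 to 248 FPKM in kidney (median 219), 54.1 to 66.4 FPKM in liver (median 61.2) and 24.2 to 37.6 FPKM in heart (median 30), and none of these ranges overlapped. Slc47a1 was called higher in 5 tissues, kidney, liver, heart, duodenum and skeletal muscle. Slc47a2 (MATE2), its paralogue, was an ovary gene, with 2.99 to 7.35 FPKM there (median 4.95) and a mean of 0.188 FPKM in stomach, the next tissue.

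The organic anion transporters formed the largest kidney group: 11 of 13 were called higher in kidney than in the other 14 tissues, against 9.83% of all genes, and 4 in liver, against 6.36%. Slc22a8 (OAT3) and Slc22a6 (OAT1), the basolateral carriers that bring anionic drugs and uremic solutes from blood into the tubule, were at 245 to 400.0 FPKM (median 336) and 102 to 153 FPKM (median 138) in kidney. In liver Slc22a8 did not pass 0.05 FPKM and Slc22a6 did not pass 0.01 FPKM. Slc22a12 (URAT1), the apical urate reabsorber, lay between 244 and 411 FPKM in kidney with a median of 256 FPKM, and the highest value, in estrus replicate 1, was apart from the other 5, which ended at 291 FPKM. The log2 difference of Slc22a12 between kidney and the other tissues was 8.04 (SE 0.039, adjusted p = 1.26e-104), and that of Slc22a8 was 7.91 (SE 0.067, adjusted p = 3.88e-86).

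Slc22a7 (OAT2), a carrier of nucleotides and cyclic GMP, was at 131 to 219 FPKM in kidney (median 168) and 7.95 to 13.7 FPKM in liver (median 11.2). Slc22a19, at 117 to 184 FPKM in kidney (median 140.0), was hardly listed elsewhere, with a mean of 0.0183 FPKM in hypothalamus, the next tissue. Slc22a30 and Slc22a26, members of the rodent cluster of these carriers, were turned the other way. Slc22a30 ran from 60.8 to 79 FPKM in liver (median 68.9) and from 5.66 to 12.7 FPKM in kidney (median 8.83), and Slc22a26 from 60.5 to 79.8 FPKM in liver and from 9.16 to 26.8 FPKM in kidney. The ranges of the 2 organs did not overlap for either gene. The log2 difference, liver minus kidney, was 2.80 for Slc22a30 (SE 0.16, adjusted p = 2.32e-09) and 2.23 for Slc22a26 (SE 0.21, adjusted p = 3.10e-07). Of the words of 50 bases in their transcripts, 35.9% for Slc22a30, 53.9% for Slc22a28, 30.5% for Slc22a27 and 30.5% for Slc22a29 also occur in transcripts of other genes, most of them members of the same cluster, so the split of reads among these 4 is uncertain. Slc22a29 (21.5 to 38 FPKM) and Slc22a28 (7.59 to 17.2 FPKM) were highest in kidney and Slc22a27 (9.55 to 24 FPKM) in liver. Slc22a13, a carrier of urate and nicotinate, was at 78.8 to 133 FPKM in kidney and shares 36% of its words with the pseudogene Slc22a13b-ps, and Slc22a22, a prostaglandin carrier, was at 12.7 to 30.6 FPKM in kidney.

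Among the carnitine carriers, Slc22a5 (OCTN2), which reabsorbs carnitine for fatty acid oxidation, was at 86.5 to 123 FPKM in kidney (median 104) and at 24 to 32.8 FPKM in BAT (median 29.6), with no overlap. It reached a mean of 1 FPKM in all 15 tissues, and was called higher in kidney, BAT and duodenum. Slc22a4 (OCTN1), the ergothioneine carrier, was at 22 to 31.5 FPKM in kidney (median 30.8) and 13.3 to 22.5 FPKM in WAT (median 17.1), where the ranges just met. Slc22a21, which shares 24.2% of its 50-base words with other genes, nearly all with Slc22a5, did not pass a mean of 5.58 FPKM, its level in duodenum.

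The other Slc22a genes have roles apart from drug transport. Slc22a17, the receptor of lipocalin 2 in iron handling, had the highest mean of all 67 genes, with 359 to 392 FPKM in hypothalamus (median 376) and 258 to 353 FPKM in cerebrum (median 272). All 6 hypothalamus libraries were above all 6 cerebrum libraries. Slc22a17 was at 29.9 to 64.4 FPKM in ovary, and at 0.34 to 0.75 FPKM in liver. Slc22a18, from an imprinted cluster, was at 247 to 342 FPKM in kidney (median 308), 67.2 to 103 FPKM in duodenum (median 78) and 55.2 to 70.4 FPKM in liver (median 63.5), so kidney stood alone while duodenum and liver overlapped. Slc22a23, with no settled substrate, was at 1 FPKM or more in all 15 tissues and highest in kidney (median 26.5 FPKM). Slc22a15 was low throughout, with its highest mean, 3.39 FPKM, in uterus.

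Each of the 6 OATP1 genes reached a mean of 1 FPKM in 1 to 4 tissues. Slco1b2, the hepatic carrier of bilirubin and statins, was at 165 to 187 FPKM in the 6 liver libraries (median 171) and at a mean of 0.258 FPKM in heart, the next tissue. Its log2 difference, liver against the other tissues, was 7.39 (SE 0.017, adjusted p = 9.92e-129). Slco1a6 was the kidney counterpart, with 83.8 FPKM in estrus replicate 3 and 107 to 118 FPKM in the other 5 kidney libraries, and a mean of 0.25 FPKM in spleen, the next tissue.

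Slco1a1 and Slco1a4 are hepatic carriers of sulfated steroids and bile acids. Slco1a1 was spread widely between the liver libraries, with 32.5, 3.7 and 36.9 FPKM in estrus and 18.5, 18.9 and 8.48 FPKM in diestrus. The lowest and the highest liver values both came from estrus, and the phases overlapped. Slco1a4 was at 22.7 to 46.2 FPKM in liver (median 36.5), 10 to 15.8 FPKM in hypothalamus and 10 to 12.8 FPKM in cerebrum. Slco1c1, the carrier of thyroxine at the brain barriers, was at 12.4 to 17.9 FPKM in cerebrum (median 16.6) and 9.38 to 11.1 FPKM in hypothalamus (median 10.9), with no overlap, and its next tissue, vein, had a mean of 0.207 FPKM. Slco1a5 reached a mean of 1.04 FPKM in ovary, its highest tissue.

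The remaining OATPs were broader. Slco2b1, a carrier of steroid sulfates and many oral drugs, was at 1 FPKM or more in all 15 tissues and highest in liver (46.9 to 58.3 FPKM, median 52.6), above spleen (25.9 to 36.6 FPKM, median 32.3). Slco3a1, which carries prostaglandins and thyroxine, was highest in heart (36.4 to 41.4 FPKM, median 38.1). Slco2a1, the prostaglandin carrier that clears prostaglandin E2, was called higher in 7 tissues, the most for any of the 67. Its liver range of 22.3 to 28.1 FPKM lay inside its duodenum range of 21.5 to 36.7 FPKM, where the highest value was the library with gastric markers. Slco4a1, a thyroid hormone carrier, was at 11.4 to 15.4 FPKM in stomach and at 6.63 to 12.2 FPKM in 5 kidney libraries, and at 40.2 FPKM in kidney diestrus replicate 2. Slco5a1 was highest in skeletal muscle (4.19 to 8.58 FPKM), and Slco4c1, a kidney carrier of digoxin, reached a mean of 1.18 FPKM there.

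Among the ABCB pumps, Abcb11 (the bile salt export pump) was a liver gene, at 74.1 to 128 FPKM (median 94.2). It was listed at 0 in all 6 kidney libraries, and in uterus a value of 5.83 FPKM came from estrus replicate 3 alone, where the other 5 lay between 0.02 and 0.04 FPKM. Abcb4, the phospholipid flippase of bile, was as high in skeletal muscle as in liver: 55.6 to 64.8 FPKM in muscle (median 60.8) and 45 to 60.8 FPKM in liver (median 51.2), with overlap. Abcb4 was called higher in liver (log2 difference 4.28, SE 0.12), skeletal muscle (4.52, SE 0.12), heart and spleen, and lower in 7 tissues, kidney and duodenum among them.

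Abcb1a and Abcb1b together make P-glycoprotein in the mouse, the drug efflux pump of gut and brain capillaries. Abcb1a was highest in duodenum, with 9.7, 49.4 and 78.5 FPKM in estrus and 15.9, 30.5 and 35.8 FPKM in diestrus. The lowest of these was again the library with gastric markers. Abcb1b was highest in ovary, with 186, 91.7 and 42.1 FPKM in estrus and 63.5, 40.6 and 51.5 FPKM in diestrus. It reached a mean of 1 FPKM in 11 tissues and was also called higher in kidney. Its highest uterus library, at 47.6 FPKM, was above the lowest ovary library. The value of ovary estrus replicate 1 was about 2 times the next, and the phases overlapped. Abcb1b shares 18.3% and Abcb1a 17% of their 50-base words with other genes, chiefly each other. Abcb5, a pump of pigment and stem cells, passed 1 FPKM in uterus only, where it is described by phase further on.

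The organelle ABCB transporters sit in mitochondria and lysosomes and are not drug pumps of the cell surface. All 5 reached 1 FPKM in 13 to 15 tissues, and none was called higher in kidney or duodenum. Abcb8, a mitochondrial exporter, was highest in BAT (33.5 to 44.4 FPKM, median 41.5) and lay at 28.8 to 31.6 FPKM in heart. In aorta Abcb8 was at 9.7 FPKM in the library rich in smooth muscle markers and up to 47.7 FPKM in the others, which held the brown adipocyte markers. Their part in the aorta level was not tested. Abcb6, of which 66.8% of 50-base words also occur in the overlapping gene Gm29253, was called higher in liver, at 20 to 24.4 FPKM. Abcb10, which is needed for heme synthesis, was highest in spleen (10.5 to 27.7 FPKM), and the lysosomal Abcb9 in cerebrum, with a mean of 12.5 FPKM.

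Of the multidrug resistance proteins of the ABCC family, Abcc2 (MRP2), the apical exporter of glucuronides and bilirubin conjugates, marked the 3 absorbing and excreting organs and reached 1 FPKM nowhere else. It was at 55.6 to 69.5 FPKM in liver (median 59.9), 33.1 to 52.7 FPKM in kidney (median 41.5) and 13.9 to 69.6 FPKM in duodenum (median 44.9). Liver lay above kidney in every library, by 0.56 on the log2 scale (SE 0.1, adjusted p = 0.000223), while duodenum overlapped both. Abcc3 (MRP3), the basolateral exporter, was at 32.2 to 43.2 FPKM in liver, 28.1 to 48.5 FPKM in duodenum and 30.2 to 49.2 FPKM in stomach, with full overlap.

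Abcc6, whose loss causes ectopic calcification, was at 28.4 to 32.7 FPKM in liver (median 30.2), and its next tissue, kidney, had a mean of 2.66 FPKM. Abcc4 (MRP4), which exports cyclic nucleotides and prostaglandins, was highest in kidney, at 15.3 FPKM in estrus replicate 3 and 21.4 to 24.7 FPKM in the other 5. Abcc5 (MRP5) was at 39 to 42.7 FPKM in hypothalamus and 35.5 to 41 FPKM in cerebrum. Abcc1 (MRP1), the exporter of glutathione conjugates and leukotrienes, was highest in uterus (10.8 to 20.2 FPKM), and Abcc10 in ovary (14.6 to 28.2 FPKM). The 2 sulfonylurea receptors, subunits of ATP-sensitive potassium channels and no transporters of drugs, were both highest in heart: Abcc9 (SUR2) at 66.6 to 89 FPKM, above skeletal muscle at 39.5 to 44.5 FPKM, and Abcc8 (SUR1) at 9.3 to 14.5 FPKM.

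In the ABCG family, Abcg5 and Abcg8 form the heterodimer that pumps plant sterols and cholesterol into bile and gut lumen, and they share the short divergent stretch printed above. Abcg5 was at 56.9, 121 and 94.8 FPKM in estrus and 78.3, 68.6 and 88.8 FPKM in diestrus in duodenum, and at 35 to 61.0 FPKM in liver (median 50.4). Abcg8 was at 21.3, 50.8 and 44.8 FPKM in estrus and 44.4, 33.5 and 48.7 FPKM in diestrus in duodenum, and at 26.3 to 48.4 FPKM in liver (median 36.3). For both genes the lowest duodenum value was the library with gastric markers, and duodenum and liver overlapped. Neither partner reached a mean of 1 FPKM in any other tissue, where the highest mean was 0.17 FPKM for Abcg5 (stomach) and 0.122 FPKM for Abcg8 (kidney).

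Abcg2 (BCRP), the exporter of urate, drugs and porphyrins, was at 108 to 161 FPKM in kidney (median 146), 25.8 to 60.5 FPKM in duodenum (median 50.7) and 9.87 to 14.4 FPKM in liver (median 12.2), and these 3 ranges were apart. Abcg3, a rodent paralogue, was a spleen gene at 24.7 to 37.1 FPKM (median 31.5), with a mean of 1.96 FPKM in duodenum, the next tissue. Abcg4 and Abcg1 move cholesterol to lipoproteins. Abcg4 was at 26 to 30.2 FPKM in hypothalamus and 20.2 to 29.8 FPKM in cerebrum, and Abcg1 at 15.7 to 19.8 FPKM in spleen.

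The tissue comparison asked in which organs these genes stood above the rest of the body. Each tissue was set against the mean of the other 14 in a fit of all 90 libraries and all genes. Libraries were treated as independent in this fit, so its p-values do not measure the spread between mice. In kidney 28 of the 67 transporters were called higher (41.8%), against 9.83% of all genes, and in liver 21 (31.3%), against 6.36% of all genes. In duodenum 13 were called higher (19.4%), against 11% of all genes. In the other 12 tissues 3 to 10 were called higher: cerebrum 10 (14.9%, against 16.5% of all genes), ovary 9 (13.4%, against 16.9%), hypothalamus 8 (11.9%, against 18.5%), vein 7 (10.4%, against 11%), heart 6 (8.96%, against 7.39%), uterus 6 (8.96%, against 13.1%), spleen 5 (7.46%, against 17.8%), stomach 5 (7.46%, against 9.62%), skeletal muscle 5 (7.46%, against 5.07%), BAT 4 (5.97%, against 6.5%), aorta 3 (4.48%, against 7.64%) and WAT 3 (4.48%, against 6.25%). In kidney and liver the share of transporters was thus several times that of all genes, and in most other tissues it was near that share or under it.

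Calls in the lower direction numbered 137 over the 15 tissues, beside 133 in the higher direction, and 7 tissues had more transporters lower than higher. In kidney 4 were lower (5.97%, against 7.38% of all genes), namely Abcc9, Abcg4, Slc22a3 and Abcb4. In liver 14 were lower (20.9%, against 26.8%), among them Slc22a17 (log2 difference -3.32, SE 0.15), Abcc5 (-2.68, SE 0.13), Abcc1 (-2.52, SE 0.1) and Slco3a1 (-2.28, SE 0.15). In duodenum 13 were lower (19.4%, against 12.9%). In the other 12 tissues 4 to 16 were lower: skeletal muscle 16 (23.9%, against 26.5% of all genes), BAT 14 (20.9%, against 15.6%), stomach 11 (16.4%, against 8.85%), spleen 10 (14.9%, against 13.1%), cerebrum 9 (13.4%, against 14.3%), heart 9 (13.4%, against 11.3%), WAT 9 (13.4%, against 7.28%), ovary 8 (11.9%, against 4.36%), hypothalamus 7 (10.4%, against 11.1%), uterus 5 (7.46%, against 4.8%), aorta 4 (5.97%, against 3.43%) and vein 4 (5.97%, against 2.34%). The median log2 difference of the 67 was 0.47 in kidney, against -0.06 for all genes, and -0.17 in liver, against -0.53 for all genes.

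Over all tissues 10 of the 67 were called higher in none, 20 in 1 and 37 in 2 or more. Kidney, liver and duodenum together covered 40 transporters, and 7 were called higher in all 3, among them the carriers Slc22a18 and Slco2a1, the exchanger Slc47a1 and the exporters Abcc2, Abcc3 and Abcc6. Kidney and liver shared 11, which is 11 of the 28 in kidney and 11 of the 21 in liver. Sharing between tissues was counted for the transporters only. With no share over all genes beside them, these counts show nothing particular to the transporters. Without duodenum estrus replicate 1, the numbers called higher in kidney, liver and duodenum stayed at 28, 21 and 13.

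**Figure D2:**
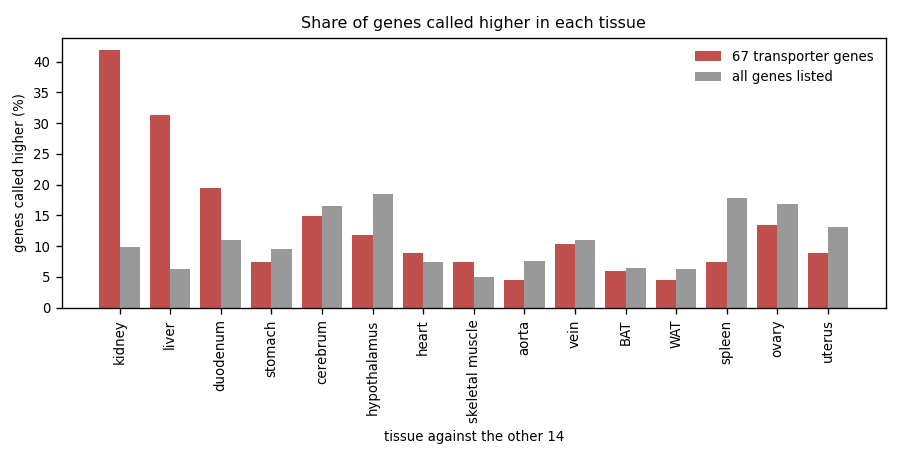
Share of the 67 transporters (red bars) and of all 20414 genes (grey bars) called higher in each tissue than in the other 14, in percent. The red bars reach 41.8% in kidney and 31.3% in liver, against grey bars of 9.83% and 6.36%.

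Direct comparisons of the 3 organs used the 12 libraries of each pair. Between liver and kidney 64 transporters were tested: 14 were called higher in liver (21.9%, against 5.67% of all genes) and 26 higher in kidney (40.6%, against 25%), while 24 were not called. The largest differences toward liver were those of Slco1b2 (7.44, SE 0.042), Abcb11 (6.60), Abcb4 (5.57) and Abcg5 (5.53) on the log2 scale, the hepatocyte's uptake carrier and its exporters of bile salts, phospholipid and sterol. The largest toward kidney were those of Slc22a8 (8.34 in size, SE 0.11), Slc22a12 (8.12), Slc22a19 (7.18) and Slc22a6 (7.04), all organic anion transporters.

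Between duodenum and liver 62 were tested, with 11 higher in duodenum (17.7%, against 24.2% of all genes) and 15 higher in liver (24.2%, against 7.44%). Abcb1a led toward duodenum with 3.55 (SE 0.4, adjusted p = 5.34e-06), and Abcg2 followed among the drug pumps with 1.83 (SE 0.18). Abcg8, by contrast, differed between duodenum and liver by 0.14 (SE 0.22, adjusted p = 0.582), Abcc3 by -0.04 (SE 0.13) and Slco2a1 by 0.01 (SE 0.12), each less than its spread between libraries. Between duodenum and kidney 64 were tested, with 5 higher in duodenum (7.81%, against 12.1%), namely Abcg5, Abcg8, Abcb1a, Abcg3 and Slc22a21, and 28 higher in kidney (43.8%, against 14.9%). Without duodenum estrus replicate 1 the calls numbered 26 between duodenum and liver and 35 between duodenum and kidney, against 26 and 33 with it.

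**Figure D3:**
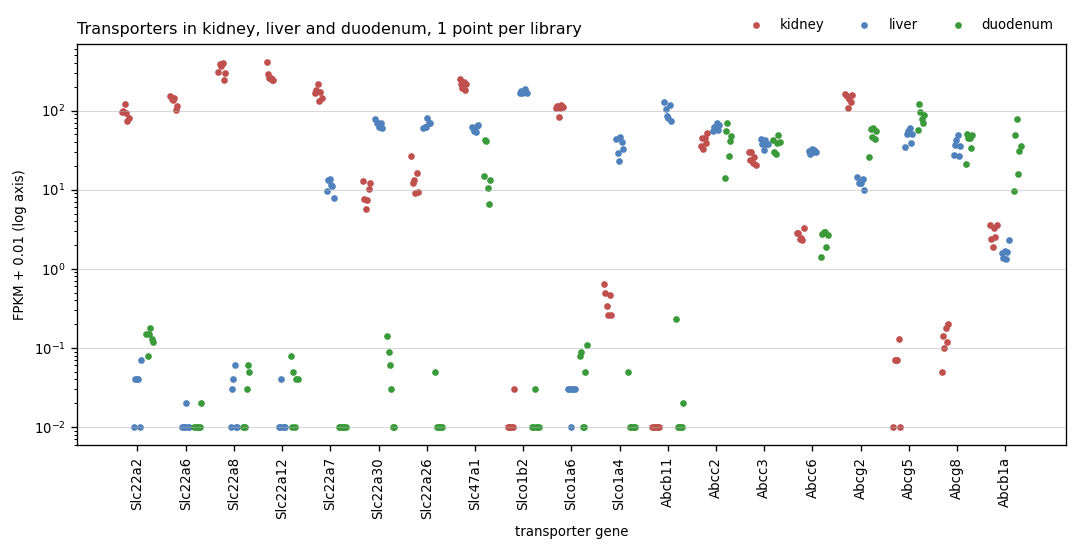
FPKM + 0.01 on a log axis of 19 transporters in the 6 kidney (red), 6 liver (blue) and 6 duodenum (green) libraries, 1 point per library, where points at 0.01 are listed at 0. Slc22a12 and Slco1a6 are high in kidney alone, Slco1b2 and Abcb11 in liver alone, and Abcg5 and Abcg8 in liver and duodenum.

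In the 2 brain tissues the transporters of the blood-brain barrier were present at moderate levels. Abcb1a was at 5.65 to 6.86 FPKM in cerebrum and 5.99 to 8.65 FPKM in hypothalamus, and Abcg2 at 6.29 to 8.46 FPKM and 6.9 to 8.82 FPKM, while Slco1c1 and Slco1a4 were called higher in both tissues. Slc22a8, also known from the choroid plexus and brain capillaries, was at 4.95, 6.17 and 9.36 FPKM in estrus and 5.69, 5.96 and 6.58 FPKM in diestrus in cerebrum, and was called higher there (log2 difference 2.02, SE 0.067). Summed choroid plexus markers in the same cerebrum libraries were at 243, 492 and 875 FPKM in estrus and 289, 363 and 95.9 FPKM in diestrus. They were highest in the library where Slc22a8 was highest, and lowest in diestrus replicate 3, where Slc22a8 was next highest. Their part in the level of Slc22a8 was not tested.

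In hypothalamus 3 carriers had their low and high libraries in common. Slc22a6 was at 3.03, 1.39 and 0.54 FPKM in estrus and 0.29, 2.69 and 2.51 FPKM in diestrus. Slc47a1 was at 6.5, 1.8 and 1.02 FPKM and 0.49, 4.4 and 4.54 FPKM, and Slc22a8 at 11.9, 6.47 and 5.24 FPKM and 4.4, 7.86 and 7.76 FPKM. For all 3 genes estrus replicate 1 was the highest and diestrus replicate 1 the lowest, and the phases overlapped. Summed choroid plexus markers lay between 80 and 102 FPKM in these 6 libraries, highest in diestrus replicate 2.

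A list of 52 partner genes, drawn up from textbook roles, was read beside the transporters: regulators, bile acid and sterol companions, other drug and urate carriers, and conjugating enzymes. Of the 52, 24 were called higher in kidney (against 9.83% of all genes) and 2 lower (7.38%), 35 higher in liver (6.36%) and 3 lower (26.8%), and 26 higher in duodenum (11%) and 6 lower (12.9%). The list was drawn from known roles in these organs, so these counts are not independent evidence of their direction. Among the 12 regulators, Hnf4a, a driver of hepatic and renal genes, was at a mean of 200.2 FPKM in kidney, 179 FPKM in liver and 164 FPKM in duodenum. Nr1i3 (CAR), the sensor of foreign compounds, was at 94.4 FPKM in liver and 38.7 FPKM in duodenum but 0.312 FPKM in kidney. Of the bile acid and sterol companions, Slc10a1 (NTCP), the bile acid uptake carrier of the hepatocyte, was at 564 FPKM in liver, and Slc51a and Slc51b, the basolateral exporter of bile acids in the enterocyte, at 139 and 127 FPKM in duodenum.

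Of the other drug and urate companions, Pdzk1, the scaffold that anchors URAT1 and other apical carriers, was at 516 FPKM in kidney, and Slc17a1, a urate exporter, at 242 FPKM in kidney. Of the 18 conjugating enzymes, which make the glucuronides, sulfates and glutathione conjugates that many of these carriers move, 15 were called higher in liver (against 6.36% of all genes), 9 in duodenum (11%) and 7 in kidney (9.83%). Gstm1 was at 1467 FPKM in liver and Gstp1 at 966 FPKM in duodenum. These are means over the 6 libraries of a tissue, compared here with no test between genes.

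The second question of the design was whether transporter levels differed between estrus and diestrus. Within each tissue, the test took the genes whose 6 libraries averaged 1 FPKM or more, which gave 449 tests of a transporter in a tissue and left out 556. None of the 449 was called, against 2 of the 185469 tests over all genes, 1 in skeletal muscle (0.00936%) and 1 in spleen (0.00798%). At an unadjusted p under 0.05 there were 34 of 449 (7.57%), against 7.84% of all tests, and 3 estrus values lay apart from 3 diestrus values in 61 (13.6%), against 15% of all tests. In estrus 220 were higher and 229 lower. The share of transporters at these looser limits was thus near that of all genes. An exact permutation test of 3 against 3 libraries cannot give a p below 0.1, and was therefore not used for single genes.

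The tissues differed in how many genes moved at these looser limits. In skeletal muscle 6 of 23 transporters were at an unadjusted p under 0.05 (20.8% of all genes there) and 6 had phases that did not overlap (26.2% of all genes). In kidney 4 of 44 were at this p (2.87%) and 6 did not overlap (7.98%), in vein 4 of 27 (12.1%) and 3 (18.2%), in BAT 3 of 27 (12.8%) and 12 (30.1%), and in duodenum 3 of 33 (13.5%) and 5 (26.6%). Cerebrum had 2 of 29 (3%) and 5 (7.8%), heart 2 of 27 (6.1%) and 2 (11.7%), hypothalamus 2 of 31 (13.2%) and 4 (19.6%), liver 2 of 36 (5.6%) and 3 (11.3%), and uterus 2 of 29 (3.74%) and 3 (7.91%). Ovary had 1 of 28 (5.96%) and 2 (13.7%), spleen 1 of 31 (3.51%) and 1 (8.78%), stomach 1 of 26 (7.38%) and 3 (13.7%), WAT 1 of 26 (5.97%) and 2 (12%), and aorta 0 of 32 (3.11%) and 4 (11.9%). Of the 34, 28 also had phases that did not overlap. The lowest adjusted p of any transporter was 0.102, reached by Abcb8 and Slco3a1 in skeletal muscle.

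**Figure D4:**
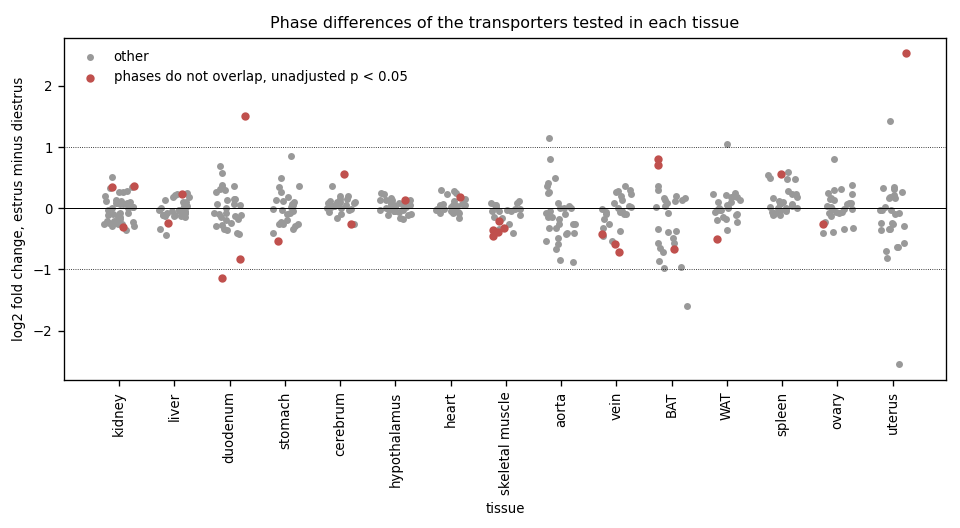
Log2 difference, estrus minus diestrus, of each transporter tested in each tissue, 1 point per transporter, with red points where the phases did not overlap and the unadjusted p was under 0.05. Dotted lines mark a difference of 1 in either direction. Most points lie between them, and the widest are Slco4a1 at 2.53 and Abcb5 at -2.55 in uterus.

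In uterus the 2 widest differences of the whole set were found, in opposite directions. Slco4a1, the thyroid hormone carrier, was at 42.3, 3.98 and 12.4 FPKM in estrus and 3.36, 0.54 and 1.22 FPKM in diestrus. All 3 estrus libraries were above all 3 diestrus libraries, although estrus replicate 2 and diestrus replicate 1 were close. The log2 difference was 2.53 (SE 0.79, unadjusted p = 0.0149, adjusted p = 0.897), and it lay between 1.73 and 3.29 with any 1 uterus library left out.

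Abcb5 in uterus was at 0.38, 0.13 and 2.94 FPKM in estrus and 2.14, 19.3 and 18.4 FPKM in diestrus. It was lower in estrus, but estrus replicate 3 was above diestrus replicate 1, so the phases overlapped. The log2 difference was -2.55 (SE 0.83, adjusted p = 0.897). Abcb1b in uterus had a difference of 1.42 (SE 1.2) that came from estrus replicate 1 alone, at 47.6 FPKM against 0.57 to 2.2 FPKM in the other 5, and without that library it was -0.1 (SE 0.48). Smooth muscle markers in uterus summed to 4829 FPKM in estrus replicate 1 and 1068 to 3192 FPKM in the other 5, and uterine epithelium markers to 1190 FPKM in diestrus replicate 3 and 2842 to 3977 FPKM in the others. Their part in these 3 genes was not tested.

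In duodenum Slc47a1 was at 14.9, 42.1 and 41.1 FPKM in estrus and 10.5, 6.66 and 13.3 FPKM in diestrus. All estrus libraries were above all diestrus libraries, the one with gastric markers by the least. The log2 difference was 1.5 (SE 0.44, adjusted p = 0.368), and 1.98 (SE 0.27, adjusted p = 0.102) without that library. Slco2b1, an uptake carrier of the gut for oral drugs, went the other way, at 8.96, 5.88 and 17.2 FPKM in estrus and 25.7, 20.8 and 22.2 FPKM in diestrus, a difference of -1.14 (SE 0.35, adjusted p = 0.368), and of -1.09 (SE 0.39) without that library. The mitochondrial Abcb8 was at 10.2, 11.8 and 15.4 FPKM in estrus and 26.8, 18.4 and 23.1 FPKM in diestrus, with no overlap (-0.82, SE 0.22), and -0.70 (SE 0.21) without the library with gastric markers. The enterocyte markers summed to 6345, 22990 and 22079 FPKM in estrus and 11798, 12698 and 17231 FPKM in diestrus. The phases overlapped through the library with gastric markers, and the other 2 estrus libraries were above all 3 diestrus libraries. The part of these markers in the differences was not tested.

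**Figure D5:**
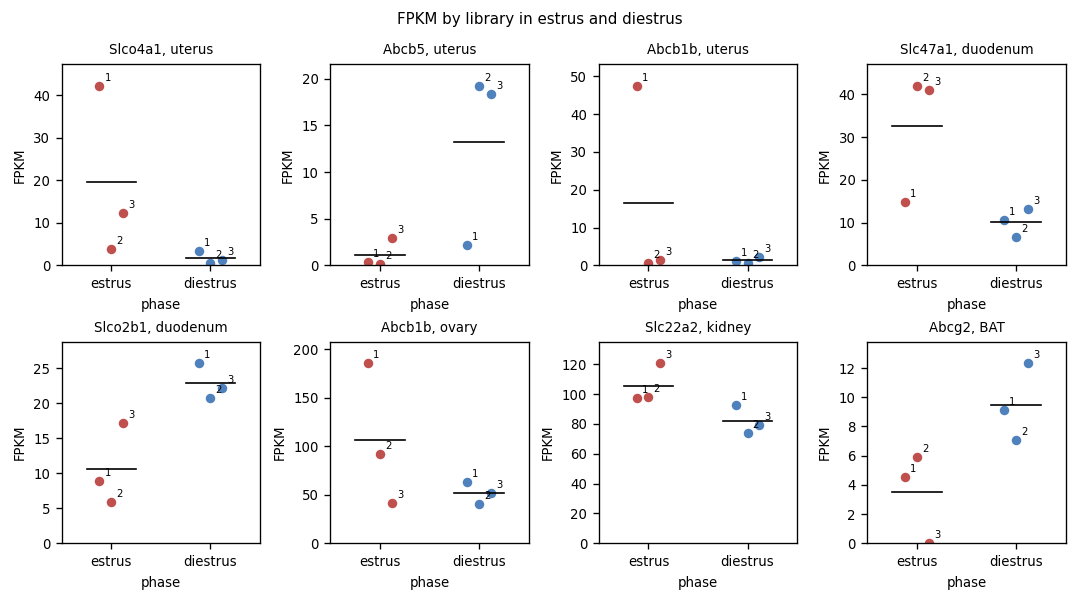
FPKM of 8 pairs of transporter and tissue in the 3 estrus (red) and 3 diestrus (blue) libraries, with replicate numbers beside the points and black lines at the means. Slco4a1 in uterus and Slc47a1 in duodenum are higher in every estrus library, while the high estrus mean of Abcb1b in uterus comes from replicate 1 alone. Slc22a2 in kidney has phases that lie apart by little.

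In kidney, where the most transporters were measured, the phase differences were small in size. Slc22a2 was at 97.2, 98 and 121 FPKM in estrus and 92.7, 73.8 and 79.5 FPKM in diestrus, apart but by 0.35 on the log2 scale (SE 0.13). Slc22a4 was at 22, 30.7 and 23.3 FPKM in estrus and 31, 31.5 and 31.4 FPKM in diestrus (-0.31, SE 0.13). The adjusted p of both was 1.00 when rounded, and the widest difference of any transporter in kidney was 0.51 in size. Also apart by phase were Slc22a13 (0.35, SE 0.15), Slc22a12 (0.33, SE 0.17), Slco2a1 (0.12, SE 0.1) and Abcb10 (-0.10, SE 0.094). The kidney proximal tubule markers summed to 41588, 49287 and 42056 FPKM in estrus and 33475, 36906 and 38564 FPKM in diestrus, with no overlap. The part of these markers in the differences was not tested.

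In liver Slc22a26 was at 60.5, 61.9 and 62.8 FPKM in estrus and 79.8, 69.9 and 69.5 FPKM in diestrus, a difference of -0.24 (SE 0.08). Abcb4 in liver was at 60.8, 52.2 and 54.7 FPKM in estrus and 45, 50.3 and 46.6 FPKM in diestrus (0.24, SE 0.087), and Abcb4 in heart was higher in estrus as well, at 13, 12 and 12.5 FPKM against 11.7, 10.3 and 10.6 FPKM (0.19, SE 0.077). The phases of each did not overlap, and none was called, with an adjusted p of 0.811 in liver and 0.793 in heart.

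In skeletal muscle Abcb8 was at 10.3, 11.5 and 10.9 FPKM in estrus and 13.2, 14.4 and 13.8 FPKM in diestrus, a difference of -0.32 (SE 0.072). Slco3a1 there was at 19.7, 16.1 and 15 FPKM in estrus and 24.3, 22.4 and 23.6 FPKM in diestrus, a difference of -0.45 (SE 0.1). Neither gene's phases overlapped. The endothelium markers summed to 131, 111 and 92 FPKM in estrus and 143, 153 and 148 FPKM in diestrus, and the brown adipocyte markers to 1335, 1106 and 1017 FPKM and 1585, 1516 and 1410 FPKM, with no overlap for either. Their part in the differences was not tested. Of the 23 transporters tested in skeletal muscle 17 were lower in estrus, with a median of -0.05, beside a median of -0.08 over all genes there. Slco3a1 was also lower in estrus in ovary, at 24.3, 27.1 and 25.7 FPKM against 33.3, 30 and 29.2 FPKM (-0.25, SE 0.097).

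In the blood vessels and fat, Slco2a1 in vein was at 16.7, 10.4 and 16.1 FPKM in estrus and 23.1, 29.1 and 20.2 FPKM in diestrus (-0.72, SE 0.21), and Abcc5 in vein at 22.9, 18.1 and 22.5 FPKM and 31.5, 27.5 and 26.5 FPKM (-0.41, SE 0.13). In the same libraries the smooth muscle markers summed to 3407, 1541 and 2008 FPKM in estrus and 2912, 4699 and 2008 FPKM in diestrus, the endothelium markers to 638, 434 and 546 FPKM and 601, 779 and 573 FPKM, and the adipocyte markers to 13730, 17030 and 13023 FPKM and 9346, 8387 and 14389 FPKM. Estrus replicate 2 was lowest and diestrus replicate 2 highest in Slco2a1 and in the endothelium and smooth muscle sums, and the adipocyte sum was at its highest and lowest in these libraries. The part of these markers was not tested, and without vein estrus replicate 2 the difference of Slco2a1 was -0.52 (SE 0.17). Slc22a23 was higher in estrus in BAT, at 14.65, 9.85 and 9.95 FPKM against 5.58, 7.61 and 6.46 FPKM (0.71, SE 0.23), and lower in estrus in WAT, at 7.41, 7.63 and 5.86 FPKM against 10.4, 8.37 and 12.1 FPKM (-0.50, SE 0.16). Its phases did not overlap in either fat. Abcc10 in BAT was at 8.35, 11.3 and 8.51 FPKM in estrus and 17.4, 13.4 and 15.4 FPKM in diestrus (-0.66, SE 0.19). Without the shallow BAT estrus replicate 3 the differences in BAT were 0.80 for Slc22a23 and -0.61 for Abcc10, each still not called. Slc22a3 in BAT was at 19.7, 18.1 and 15.3 FPKM in estrus and 8.17, 14.2 and 7.58 FPKM in diestrus, with no overlap (0.81, SE 0.26). In BAT the endothelium markers summed to 306, 347 and 256 FPKM in estrus and 457, 459 and 540 FPKM in diestrus. The brown adipocyte markers summed to 11811, 12623 and 11714 FPKM and 15325, 13539 and 13728 FPKM, and neither set overlapped. Skeletal muscle fibre markers summed to 1429, 1595 and 996 FPKM and 317, 33.1 and 6015 FPKM. The part of these markers in the BAT differences was not tested. Slco2a1 in WAT was at 11, 2.08 and 3.9 FPKM in estrus and 2.06, 0.78 and 2.74 FPKM in diestrus, where the phases overlapped (1.05, SE 0.5). Without WAT estrus replicate 1, the highest value, the difference was 0.51 (SE 0.34). That library had a smooth muscle sum of 2773 FPKM against 130 to 306 FPKM in the other 5 WAT libraries, a macrophage sum of 943 FPKM against 284 to 478 FPKM and an adipocyte sum of 23033 FPKM against 30196 to 35725 FPKM. Their part was not tested.

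The size of the Abcg2 difference in BAT rested on the shallow BAT library. Abcg2 was at 4.57, 5.93 and 0 FPKM in estrus and 9.14, 7.04 and 12.3 FPKM in diestrus, where the 0 is a gene listed at 0 in the library of about 89070 reads. The log2 difference was -1.60 (SE 0.76), and -0.73 (SE 0.23) without that library. The remaining estrus values were still below all diestrus values, and Abcg2 was not called in either fit.

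Other members with phases apart at an unadjusted p under 0.05 were small in size. In cerebrum Abcg2 was at 6.37, 6.29 and 7.06 FPKM in estrus and 8.06, 7.53 and 8.46 FPKM in diestrus (-0.25, SE 0.081), and Slc47a1 at 1.65, 1.62 and 2.33 FPKM and 0.49, 1.45 and 0.97 FPKM (0.56, SE 0.2). In hypothalamus Slc22a5 was at 7.41, 6.79 and 7.23 FPKM in estrus and 6.55, 6.45 and 6.29 FPKM in diestrus (0.13, SE 0.057). In spleen Slc22a4 was at 3.9, 5.32 and 4.16 FPKM and 2.41, 3.59 and 2.22 FPKM (0.55, SE 0.16). Slc47a1 thus differed in the same direction in cerebrum and duodenum, and in skeletal muscle it was lower in estrus (-0.38, SE 0.1).

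A difference shared by all tissues was sought in a fit of the 90 libraries with tissue as a term. Of the 56 transporters tested none was called, against 0.00657% of all genes, and by limma none was at an unadjusted p under 0.05 either, against 12% of all genes. With an adjusted p of at most 0.05 and no limit on size there was also none, against 0.118%. In this fit 30 were higher in estrus and 26 lower, with a median of 0.01, beside -0.02 for all genes tested.

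Whether the phase difference of a gene varied between tissues was tested by the interaction of phase and tissue, an F test over 14 terms. By limma 1 of the 56 transporters was called, Slco4a1 (F = 2.98, adjusted p = 0.0443), against 3.88% of all genes, and 7 were at an unadjusted p under 0.05, against 19.2%. The phase difference of Slco4a1 ran from -0.84 in aorta to 2.53 in uterus, higher in estrus in 6 of the 9 tissues where it was tested and lower in 3. Slco2b1 came next with an adjusted p of 0.0516 and ran from -1.14 in duodenum to 0.23 in WAT. The call of Slco4a1 is close to its limit: with each of the 90 libraries left out in turn, its adjusted p ran from 0.000338 to 0.262 and was above 0.05 in 52 of the 90, with the highest value without uterus estrus replicate 1. No transporter was called once the fit held a block for replicate number, and none with a pseudocount of 0.1 FPKM. That block joins same-numbered libraries of both phases, which come from different mice, so it is not a block for mouse.

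The 52 partner genes gave 398 tests of the phases within tissues. None was called, and 52 of the 398 were at an unadjusted p under 0.05 (13.1%, against 7.84% of all genes' tests), with 12.5% to 14.4% in each of the 4 sets. By role group, the transporters with an unadjusted p under 0.05 numbered 7 of 56 tests for the broader OATPs, 4 of 73 for the organelle ABCB transporters, 3 of 23 for the organic anion transporters, 3 of 18 for the organic cation transporters, 3 of 11 for the MATEs and 0 of 10 for the OATP1 genes. They numbered 4 of 38 for the carnitine and zwitterion carriers, 3 of 49 for the other Slc22a genes, 3 of 35 for the ABCB pumps, 2 of 72 for the multidrug resistance proteins, 1 of 19 for the ABCG drug and urate transporters, 1 of 25 for the ABCG sterol transporters and 0 of 20 for the sulfonylurea receptors. The share over all genes' tests was 7.84% here too. Members of a group are not replicates, and by the study's text the tissues of a phase came from the same 3 mice.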

How the data were processed

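RNA of 15 tissues from female mice in 2 phases, 3 libraries per group, was analysed. Per the submitters' processing notes and the study's methods, the authors aligned reads with Bowtie2 2.2.5 and quantified genes with RSEM 1.2.8 on GRCm38.p5, from a kit that does not mark strand, and deposited FPKM per gene without counts. Reads per library were estimated from the steps of low FPKM values, but only 64.4% to 82.5% of these were whole within 0.2 reads, so no count test was run.

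Genes were matched to symbols by Entrez ID (20265 of 20414). Differences were fitted on log2(FPKM + 1) with limma 3.58.1 in R 4.3.3 (trend, two-sided, Benjamini-Hochberg adjustment over all genes tested). The phases were compared within each tissue (mean of at least 1 FPKM), over all tissues, and for an interaction. Each tissue was compared with the other 14, and liver, kidney and duodenum with each other, on all genes. The mice behind the tissues are not linked in the labels, so libraries were treated as independent, and p-values measure the spread between libraries. Replicate numbers did not pair estrus with diestrus libraries, and whether they link tissues of the same mouse was not settled. The fits were tested on simulated data. Words of 50 bases were compared between GENCODE M21 transcripts. Promoter windows came from RefSeq.

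Members and lists were chosen with earlier results of these data known. Named were members called in a phase comparison, up to 2 per tissue with phases apart and an unadjusted p under 0.05, textbook members, and the 3 highest of each role group. Others, such as Slc22a19, Abcb5, Abcb1b in uterus and Slco2b1 in duodenum, were named after their values were seen, as were the core motifs. A few members enter the counts but are not reported here by name. Alternatives were another pseudocount, filter, scaling, a block, other call limits and libraries left out.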

Additional observations from a re-analysis of the deposited data

Results flagged for a closer look

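In 4 of 44 transporters examined in the 6 libraries of their highest tissue, 1 library lay far from the other 5 by Dixon's limit for 6 values, which chance alone passes in about 1 of 20 such groups. Abcb1b in ovary was at 186 FPKM in estrus replicate 1 and at 40.6 to 91.7 FPKM in the others, and without it the phase difference was 0.28 (SE 0.35), against 0.80 (SE 0.49) with it. Slc22a12 in kidney was at 411 FPKM in estrus replicate 1 and at 244 to 291 FPKM in the others. Abcc4 and Slco1a6 in kidney were lowest in the same library, estrus replicate 3, at 15.3 FPKM against 21.4 to 24.7 FPKM for Abcc4 and at 83.8 FPKM against 107 to 118 FPKM for Slco1a6. The phase difference of Slco4a1 differed between tissues by the interaction test of limma (adjusted p = 0.0443). With the replicate number as a block, which joins different mice of both phases, no transporter was called. The adjusted p of Slco4a1 was above 0.05 in 52 of the 90 fits that left out 1 library.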

How the results depend on the processing

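The counts for kidney (28 higher), for liver (21) and for liver against kidney (40 called) stayed within 1.5 times of these values under every alternative run. The interaction count, 1 transporter, was 0 with a pseudocount of 0.1 FPKM, 4 with the other filter, 2 on TPM, 1 to 5 without 1 replicate number, and 0 to 5 without 1 library. Within tissues, 0 transporters were called under every alternative but the fit of all 90 libraries with 1 shared spread, which called 7 (among them Slco4a1, Abcb5 and Abcb1b in uterus, Slc47a1 and Slco2b1 in duodenum and Abcg2 in BAT), with adjusted p-values of 8.42e-06 for Slco4a1 and 0.00271 for Slc47a1. With no limit on the fold, 22 were higher in duodenum (13 with it) and 44 were called between duodenum and liver (26 with it). Dropping that limit can only add calls, for all genes alike. The share of all genes called without it is not given here, so these counts say nothing particular to the transporters. Of 334 recomputed values of the 21 named phase differences, none changed direction and 332 kept their side of the limit. The 21 were chosen for phases that did not overlap. Leaving out a library or changing the pseudocount could therefore not reverse them, so their direction is no sign of stability.

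With the replicate number as a block (the number within a phase in the tissue comparisons), the interaction count was 0. No other count above moved by over 1.5 times. Over all tissues, 0 transporters were called for the phase under every alternative run. In 0 of 15 tissues were all 3 correlations between same-numbered estrus and diestrus libraries over 0.1. These are different mice, so this cannot show which libraries of different tissues share a mouse. Between tissues of a phase the mean r was 0.045 for the same number and -0.022 for other numbers. The second value follows from the first, because deviations from the mean cancel within a group. Whether same-numbered libraries of different tissues come from the same mouse was thus not settled. The alternatives that leave out a single library were chosen after seeing the data.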
